A study of Mus musculus with 14 samples.

Results

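Tumor spheroids in which *Dhps* was silenced were compared directly with spheroids in which *Grin2d* was silenced, both grown with aspartate. The comparison took every library labelled ASP shDHPS (n = 4) and every library labelled ASP shGRIN2D (n = 3), which makes 7 of the 14 libraries of the series, and the control-hairpin libraries had no part in the test. The 4T1 line comes from a mouse mammary tumor without estrogen, progesterone and HER2 receptors, and all spheroids spent 5 days in lung-like medium, which copies the nutrients of lung interstitial fluid. For both groups this medium held 700 µM aspartate. Each knockdown was made with a lentiviral pLKO short hairpin in 4T1 cells that were selected with puromycin and kept as a polyclonal pool, so target, hairpin and cell pool cannot be told apart in a comparison of 2 such lines. The 7 control libraries carried a non-targeting hairpin (shSCR), with aspartate (ASP shSCR, n = 4) or with no aspartate added (NoASP shSCR, n = 3). RNA came from the cytosolic lysate that served as input for polysome profiling, taken from cells washed in cycloheximide, and was made into stranded mRNA libraries. Transcript levels were therefore measured, and translation was not.

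Deoxyhypusine synthase, the product of *Dhps*, moves part of the polyamine spermidine onto 1 lysine of the translation factor eIF5A, and deoxyhypusine hydroxylase (*Dohh*) completes the residue called hypusine, which eIF5A needs for its work in elongation and termination. *Grin2d* encodes a GluN2 subunit of the NMDA receptor, a calcium channel opened by glutamate and able to bind aspartate, best known at synapses and also expressed by tumor cells. The study placed both proteins on 1 route, in which extracellular aspartate acts through the NMDA receptor and CREB on eIF5A hypusination. The direct comparison asks in which transcripts the knockdown lines differ from each other.

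Total counts were between 14883457 and 19497436 in the 7 libraries, and levels are given as CPM, counts scaled to the same library size with TMM factors. Differences are log2 fold changes, shDHPS minus shGRIN2D, from edgeR's quasi-likelihood test on counts, and a gene was called at a Benjamini-Hochberg adjusted p under 0.05 over all 19525 genes. Replicates correlated with Pearson r of 0.987 to 0.989 across genes, and mitochondrial genes held 5.43% to 6.23% of the counts. On the first principal component of these libraries, shGRIN2D lay between -39.0 and -27.4 and shDHPS between 15.1 and 35.3. On the second, shDHPS replicate 1 stood apart at -42.7, and 1142 genes were called without it. The epithelial markers summed to 3784 to 4543 CPM over all 8 genes, those of leukocytes to at most 1.73 CPM over 6 and those of endothelial cells to at most 0.867 CPM over 3. Of 7 fibroblast markers, 3 were measured, with *Dcn* at no more than 3 counts. Their sum was 182.5 to 214.5 CPM in shDHPS and 172.9 to 176.6 CPM in shGRIN2D, without overlap and mostly from *Thy1* (log2 fold change 0.21, adjusted p = 0.335), and none of the 3 was called. In bulk RNA, fewer cells of a kind and less RNA per cell cannot be told apart.

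*Dhps* was 20.5, 22.8 and 19.1 CPM in the shGRIN2D libraries and 5.57, 5.46, 7.62 and 9.08 CPM in the shDHPS libraries. All shDHPS libraries lay below all others of the series, of which the lowest was 16.7 CPM. The fitted log2 fold change was -1.58 (standard error 0.158, adjusted p = 8.36e-07 in edgeR's quasi-likelihood test), from means of 6.93 ± 1.74 (SD, n = 4) and 20.8 ± 1.87 CPM (SD, n = 3). *Grin2d* was 2.06, 2.17 and 3.13 CPM in shGRIN2D and 2.21, 3.26, 4.59 and 3.52 CPM in shDHPS. Both groups overlapped, and at 0.48 on the log2 scale (standard error 0.267) the gene was not called (adjusted p = 0.405 in edgeR's quasi-likelihood test). At 37 to 85 counts a library, *Grin2d* does not check the shGRIN2D label.

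**Figure D1:**
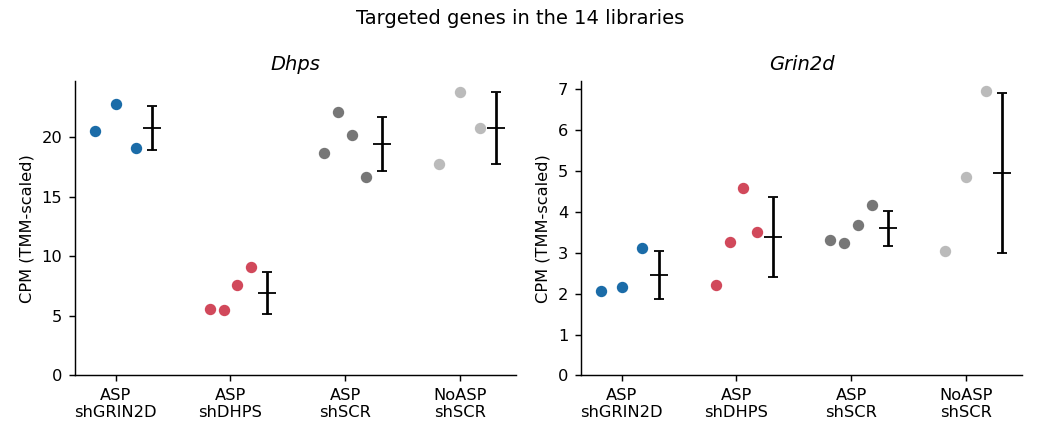
CPM of *Dhps* and *Grin2d* in the 14 libraries by group, 1 point per library, with the mean and SD as a bar beside the points. *Dhps* is at most 9.08 CPM in ASP shDHPS and at least 16.7 CPM elsewhere, while *Grin2d* overlaps between the knockdown groups.

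Of 19525 genes, 708 were called (3.63%): 302 were higher in shDHPS (1.55%) and 406 were lower (2.08%). Most differences were moderate. Of the called genes, 394 differed at least 1.5-fold (146 higher and 248 lower) and 147 at least 2-fold (44 higher and 103 lower), and 62 passed a test against a change of 1.5-fold. In 679 of the 708 genes (95.9%) the libraries of the groups did not overlap, beside 2945 of all genes (15.1%). In the 10210 genes that averaged 5 CPM or more, the median log2 fold change was 0.01, with the 5th percentile at -0.39 and the 95th at 0.35. DESeq2, a filter on low counts and a robust prior all called 572 of the 708 genes too, 261 higher and 311 lower. Adjusted p in edgeR's quasi-likelihood test depended on the fit, and that of *Dhps* moved from 8.36e-07 to 0.000245 with that filter. Among all alternatives, DESeq2 included, the highest adjusted p was 0.00012 for *Ccne1*, 4.31e-05 for *Itgb3* and 6.2e-05 for *Ace*. The main fit gave 8.32e-08, 4.19e-09 and 4.19e-09. The calls that followed 1 library are given with the lists and in the closing section, and leaving out any shGRIN2D library took the count to between 348 and 442.

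**Figure D2:**
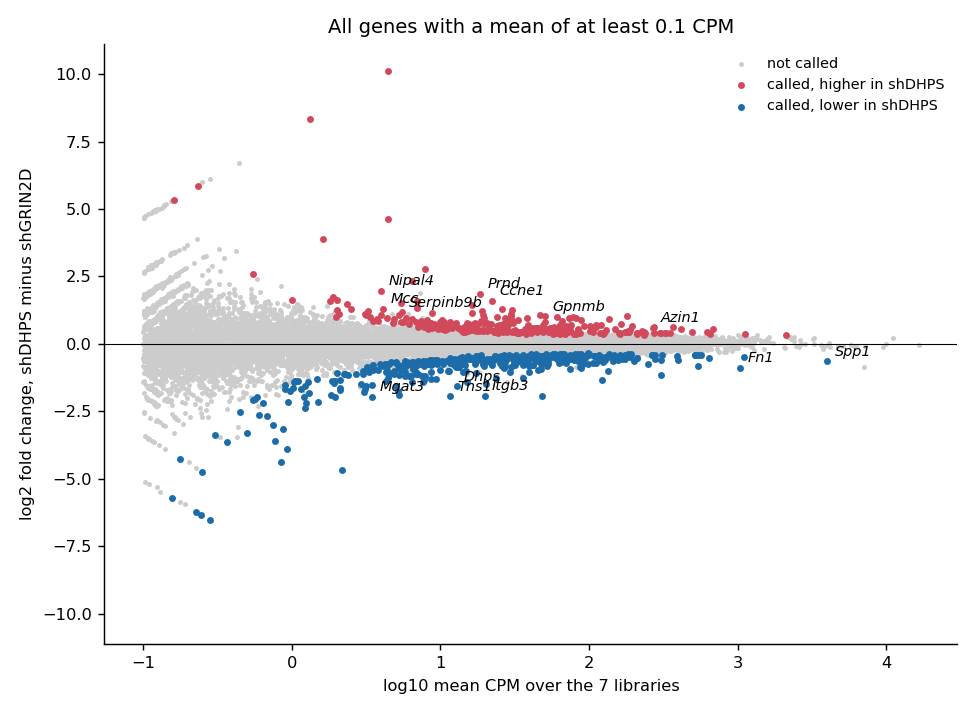
Log2 fold change (shDHPS minus shGRIN2D) against log10 of the mean CPM over the 7 libraries, 1 point per gene above 0.1 CPM. Colored points are the genes called at an adjusted p under 0.05, and names mark genes described in the text. Below about 1 CPM the spread widens, and called genes there differ more.

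The genes highest in shDHPS relative to shGRIN2D included a cell-cycle driver, a prion-like protein and membrane proteins. *Ccne1*, which encodes cyclin E1, the partner of CDK2 at entry into S phase, was 9.12, 12.7 and 9.07 CPM in shGRIN2D. In shDHPS it was 35.8, 30.8, 28.9 and 29.5 CPM. The lowest shDHPS library was thus more than 2 times the highest shGRIN2D library, and the fitted ratio was 3.05 (log2 fold change 1.61, standard error 0.14, adjusted p = 8.32e-08). *Prnd*, the gene of the prion-like protein doppel, was 5.10, 9.16 and 8.07 CPM against 27.9, 22.6, 27.5 and 28.8 CPM. Its ratio was 3.62 (log2 fold change 1.86, adjusted p = 8.32e-08). *Nipal4*, a membrane protein of the skin lipid barrier, rose from 1.49 ± 0.613 (SD, n = 3) to 5.86 ± 1.56 CPM (SD, n = 4), the largest ratio of this direction among the genes named (3.93). *Plxna4*, a semaphorin co-receptor, was 2.86-fold higher, the long non-coding RNA *Mirt1* 2.69-fold and *Mcc*, a regulator of Wnt signaling, 2.47-fold. *Gvin2*, a very large interferon-inducible GTPase, and *Serpinb9b*, a serine protease inhibitor, were 2.52-fold and 2.27-fold higher. Both belong to families of near-identical copies, between which read assignment is uncertain. *Serpinb9b* was not called when all 14 libraries were fitted (adjusted p = 0.0998).

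*Cyb561a3*, a lysosomal reductase that passes electrons from ascorbate to ferric iron, was 14.3, 16 and 12.2 CPM in shGRIN2D and 38.7, 35.7, 34.8 and 29.6 CPM in shDHPS. *Nbl1*, a secreted antagonist of bone morphogenetic proteins, was 10.1, 11.7 and 10.8 CPM against 22.7, 27.4, 27.3 and 23.9 CPM. In neither gene did the groups come near each other, and the log2 fold changes were 1.29 (standard error 0.13, adjusted p = 8.36e-07) and 1.23 (standard error 0.128, adjusted p = 1.43e-06) by edgeR's quasi-likelihood test with Benjamini-Hochberg adjustment. For these genes the shDHPS libraries were close to those of ASP shSCR, where *Cyb561a3* was 27.7 to 37.3 CPM and *Nbl1* 20.1 to 24 CPM. *Chac1*, an enzyme that breaks down glutathione, showed the other arrangement. It was 9.84, 9.51 and 9.60 CPM in shGRIN2D, 8.67 to 11 CPM in ASP shSCR, and 22.7, 19.0, 23.6 and 19.2 CPM in shDHPS (log2 fold change 1.13, adjusted p = 5.3e-06).

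Genes with the largest differences in the lower direction included a peptidase, an integrin chain, actin-linked proteins and a glycosyltransferase. *Ace*, the angiotensin-converting enzyme, was 98.3, 75.7 and 75.0 CPM in shGRIN2D and 14.9, 22.8, 24.1 and 24.2 CPM in shDHPS. *Itgb3*, the integrin beta 3 chain, was 40.5, 33.5 and 28.9 CPM against 11.1, 9.06, 8.10 and 8.06 CPM. *Tns1*, which encodes tensin 1 and links integrins to actin, was 20.9, 17.6 and 21.7 CPM against 3.20, 5.40, 5.83 and 6.35 CPM. In all these genes the lowest shGRIN2D library was more than 2 times the highest shDHPS library. Log2 fold changes were -1.95 (standard error 0.139) for *Ace*, -1.91 (standard error 0.14) for *Itgb3* and -1.95 (standard error 0.172) for *Tns1*, with adjusted p of 4.19e-09, 4.19e-09 and 8.32e-08. *Mgat3*, the transferase that adds the bisecting N-acetylglucosamine to N-glycans, was 6 ± 1.39 CPM (SD, n = 3) in shGRIN2D and 1.55 ± 0.462 CPM (SD, n = 4) in shDHPS (log2 fold change -1.97, adjusted p = 1.81e-05). *Gper1*, a G protein-coupled estrogen receptor, was 3.32-fold lower in shDHPS. *Extl1*, a glycosyltransferase of the exostosin family, was 3.23-fold lower, and *Cspg4*, the NG2 proteoglycan, 2.96-fold.

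*Gas7*, which binds actin and shapes membranes, was 9.06, 9.75 and 8 CPM in shGRIN2D and 1.63, 2.80, 2.00 and 3.31 CPM in shDHPS. *Odf3l1* was 34.1, 29.9 and 31.7 CPM against 8.98, 13.6, 10.9 and 12.2 CPM. In both genes shGRIN2D was the group that stood alone, and ASP shSCR measured 1.88 to 3.14 CPM for *Gas7* and 8.41 to 12.2 CPM for *Odf3l1*, within or near the shDHPS range. Their log2 fold changes were -1.88 (adjusted p = 3.83e-06) and -1.48 (adjusted p = 8.32e-08) in edgeR's quasi-likelihood test with Benjamini-Hochberg adjustment. *Map1a*, a microtubule-associated protein, was 2.97-fold lower in shDHPS.

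**Figure D3:**
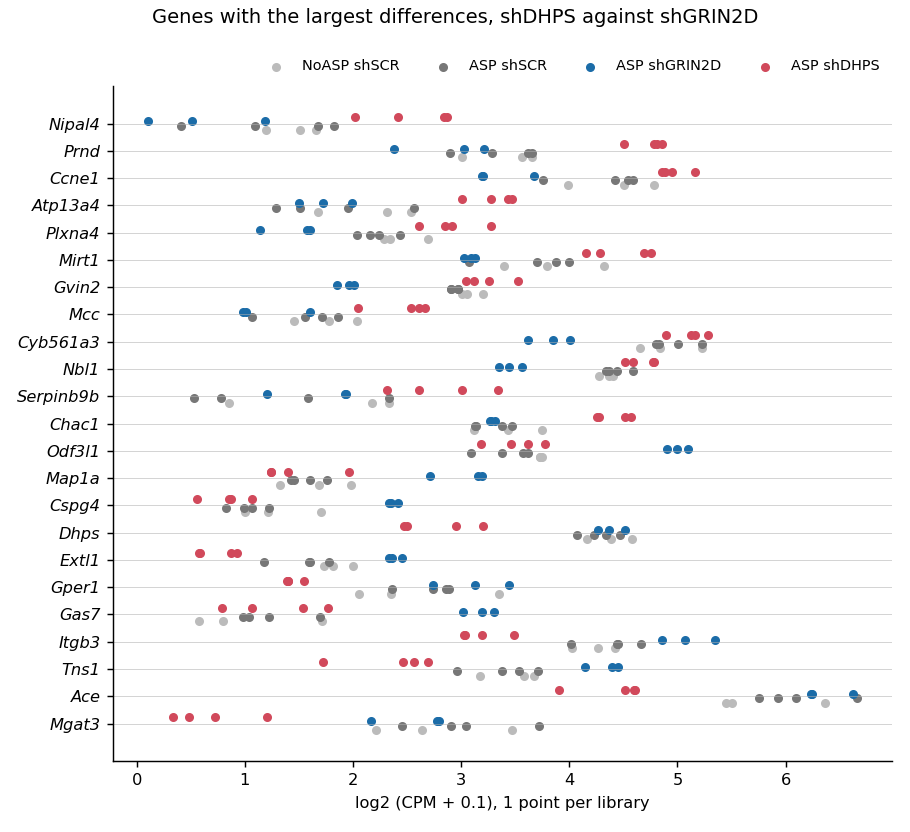
Log2 of CPM + 0.1 of the 23 genes with the largest differences, 1 row per gene and 1 point per library, for all 4 groups. In each row the ASP shDHPS and ASP shGRIN2D points do not overlap, and the control points lie beside one knockdown, beside the other, or between both.

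Each knockdown was also set beside ASP shSCR in a fit of all 14 libraries. Both of these comparisons use the same 4 control libraries, so their values are given side by side and were not related to each other. Against ASP shSCR, shDHPS had 4.22% of all genes called (1.65% higher and 2.57% lower) and shGRIN2D 1.16% (0.425% higher and 0.732% lower). ASP shSCR replicate 2 stood apart from the other ASP shSCR libraries in a number of genes. In some of these NoASP shSCR replicate 2 lay on the same side. *Aldoc* was 31.1 and 23.6 CPM in these libraries and 9.51 to 11.6 CPM in the other controls. *Srm* was 50.6 and 54.4 CPM against 76.3 to 93 CPM, while *Slc39a8* did not follow this. Why was not tested. A value whose call ended without ASP shSCR replicate 2 is given both ways. For *Ccne1*, shGRIN2D was lower than shSCR (log2 fold change -0.99, adjusted p = 0.00835) and shDHPS was higher (0.61, adjusted p = 0.0397; 0.46, adjusted p = 0.123 without that library). For *Tns1* and *Itgb3* both knockdowns were called, on opposite sides. *Tns1* was at -1.03 in shDHPS and 0.92 in shGRIN2D (adjusted p = 0.00356 and 0.0135), and *Itgb3* at -1.22 and 0.70 (adjusted p = 6.4e-05 and 0.019).

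Other large differences had a call on 1 side. Against shSCR, shDHPS was called for *Prnd* (1.35), *Atp13a4* (1.45), *Chac1* (1.12), *Ace* (-1.72), *Gper1* (-1.32) and *Mgat3* (-2.47). For the same genes shGRIN2D was at -0.50, -0.14, -0.01, 0.22, 0.41 and -0.50 against shSCR, with adjusted p of 0.36 or more. The reverse held for *Cyb561a3* (-1.14), *Nbl1* (-0.99), *Gvin2* (-1.02), *Odf3l1* (1.58), *Gas7* (1.98), *Map1a* (1.50) and *Cspg4* (1.37), which were called in shGRIN2D. There shDHPS was between -0.20 and 0.31 against shSCR, with adjusted p of 0.209 or more. All the calls on these sides held without ASP shSCR replicate 2. The test of the difference between both effects is the direct comparison itself, and it called every gene in this paragraph.

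A 7-base sequence was more frequent than in all genes among those called higher in shDHPS relative to shGRIN2D. TCATGAA had been named in an earlier analysis of these same libraries, so its share here is a description and no independent result. The longest annotated 3′ UTR per gene was searched on the transcript strand in 9833 genes that averaged 5 CPM or more. The sequence was in 1230 of them (12.5%), in 83 of 252 genes called higher in shDHPS (32.9%) and in 35 of 314 called lower (11.1%). Ranked by the difference from the share in all genes, it came first of 16384 sequences for the genes called higher and 16275th for those called lower. The next for the genes called higher was TTCATGA (29.8% against 12.3%), which overlaps it by 6 bases. In the genes called lower, AAAGGAA came first (40.1% against 25.7%), and their UTRs were longer, at a median of 1796.5 bases against 1236 in all genes and 1105 in the genes called higher.

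The following windows show the first match, in capitals, with 11 bases on each side, in 4 named genes that were higher in shDHPS and in *Gas7* and *Tns1*, which were lower. Among the named genes searched, these are the ones with a match that differed most in each direction. *Fosl2*, also lower, held a match too. Sequences come from GENCODE M21 transcripts of the GRCm38 assembly, while the counts rest on GRCm39, so the place is given within the UTR and no genome position is printed.
Ccne1: atgtcctgcctTCATGAActcttattttg
Cyb561a3: ggtattttactTCATGAAtcttattttta
Nbl1: cccgagtgtttTCATGAAtaaataccttc
Ppt1: tatagcagagtTCATGAAaccacagctct
Gas7: ccattgttcatTCATGAAgagttttgtta
Tns1: caccccccaccTCATGAAtcctacttctc

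The match began at base 463 of a 531-base UTR in *Ccne1* (chromosome 7), at 1243 of 1281 in *Cyb561a3* (chromosome 19) and at 1027 of 1061 in *Nbl1* (chromosome 4). It began at base 25 of 1446 in *Ppt1* (chromosome 4), which held 2 matches, at 1816 of 5539 in *Gas7* (chromosome 11) and at 2163 of 4299 in *Tns1* (chromosome 1). A match is a string of letters and was not tested as a binding site, and the hairpin sequences were not analysed here.

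By number of matches, 1.96% of 8603 genes without one were called higher in shDHPS, 6.36% of 1053 genes with 1 and 9.04% of 177 genes with 2 or more. The shares called lower were 3.24%, 3.13% and 1.13%. The median log2 fold changes were small in every class, at -0.0004, 0.04 and 0.05. Median UTR lengths rose with the number of matches, from 1098 to 2389 and 3975 bases. Against ASP shSCR, shGRIN2D had 6 genes called higher and 41 called lower among those with 1 match, 0 and 18 among those with 2 or more, and 56 and 64 among those with none. For shDHPS the counts were 24 and 53, 2 and 8, and 250 and 341 in the same order. Genes with a match were thus called lower more often than higher against ASP shSCR in both knockdowns. In that order the median log2 fold changes against ASP shSCR were -0.0591, -0.0784 and 0.0148 in shGRIN2D. In shDHPS they were -0.0416, -0.0647 and 0.000885. When genes were ordered by log2 fold change into 20 bins, the share was 27.4% in the highest bin and 18.1% in the next. It lay between 8.96% and 13.8% in the other 18 bins. Whether UTR length takes part in these shares was not tested.

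**Figure D4:**
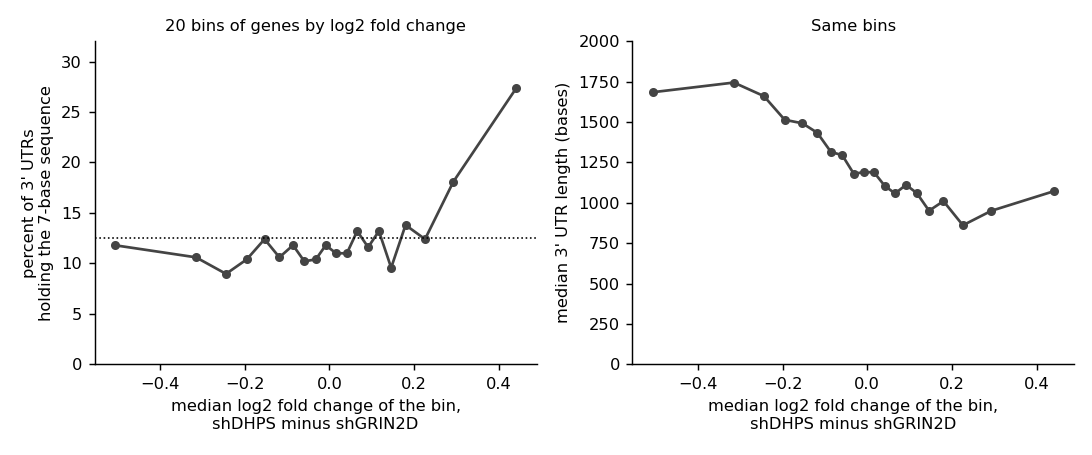
Left, the percent of genes whose 3′ UTR holds the 7-base sequence in 20 bins of genes ordered by log2 fold change (shDHPS minus shGRIN2D), plotted at the median of each bin, with the share in all 9833 genes dotted. Right, the median 3′ UTR length of the same bins in bases. The share reaches 27.4% in the highest bin, whose median length of 1073 bases is below the 1236 bases of all genes.

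Gene groups were described by how many measured members were called, beside the shares of all genes (1.55% higher and 2.08% lower). Among genes at 5 CPM or more in the higher group these shares were 2.71% and 3.32%. The lists and the choice to show them rest on earlier results of these libraries, and a list's count carries no test of its own. Of 105 called genes named in these comparisons, 45 were called in all 16 alternative fits. The other 60 were lost in at least 1, and 56 of them when a library was left out. These are named in the closing section with their highest adjusted p.

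**Figure D5:**
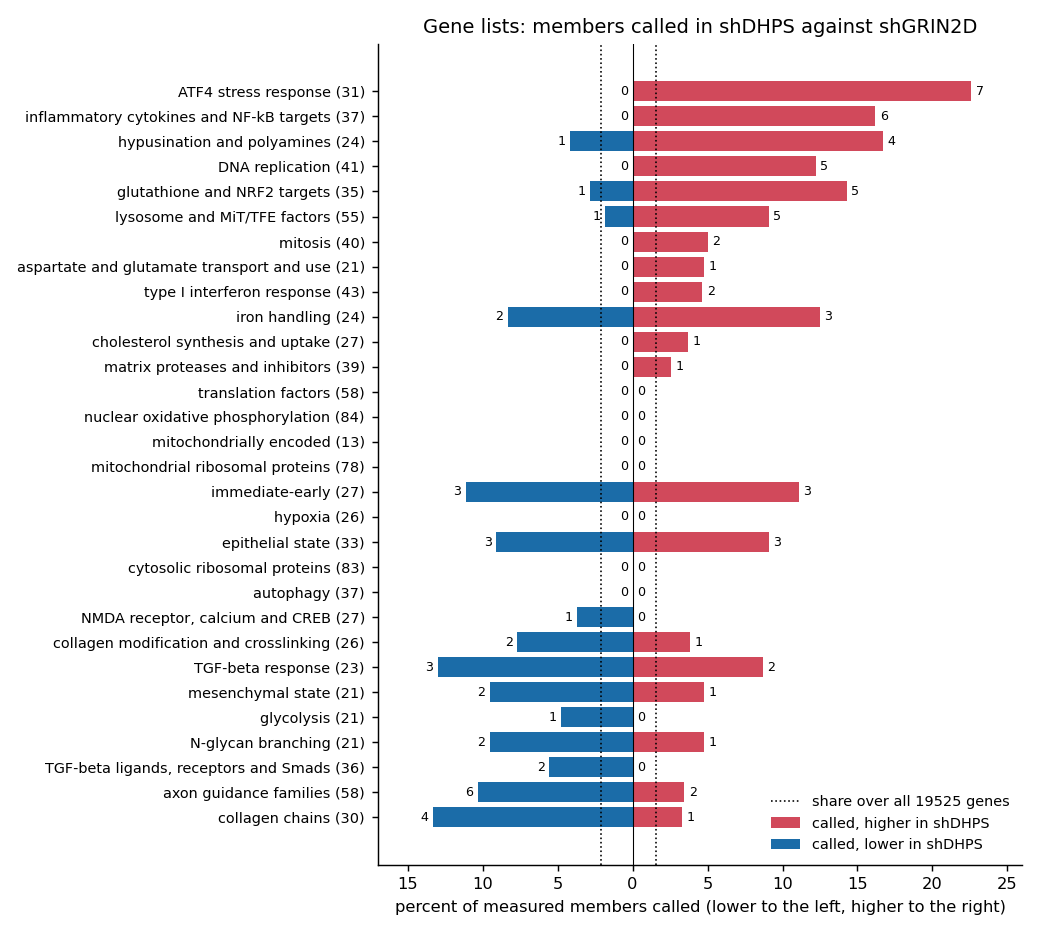
Percent of the measured members of 30 gene lists called lower (left) and higher (right) in shDHPS against shGRIN2D, with the number of measured members in brackets and of called members beside each bar. Dotted lines mark the shares over all 19525 genes. The ATF4 list reaches furthest to the right, with 7 of 31 members, and the collagen chains furthest to the left, with 4 of 30.

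In the pathway that *Dhps* belongs to, 4 of 24 measured genes of hypusination and polyamine metabolism were called higher in shDHPS and 1, *Dhps*, lower. *Odc1*, ornithine decarboxylase, which starts polyamine synthesis, was 554, 575 and 500 CPM in shGRIN2D and 936, 806, 722 and 687 CPM in shDHPS. *Azin1*, which shields ornithine decarboxylase from its antizyme, was 217, 228 and 186 CPM against 405, 303, 268 and 304 CPM. In both genes shDHPS replicate 1 was the highest library and the groups did not overlap. The log2 fold changes were 0.54 (adjusted p = 0.00484) and 0.61 (adjusted p = 0.00418). *Atp13a4*, a P5-type ATPase related to the polyamine transporters, was 3.27 ± 0.576 CPM (SD, n = 3) and 9.79 ± 1.39 CPM (SD, n = 4), with a log2 fold change of 1.59. Its relative *Atp13a2* was not called (-0.30, adjusted p = 0.313). *Dohh*, the enzyme after *Dhps*, was 44.6 ± 2.62 against 59.9 ± 4.29 CPM (log2 fold change 0.43, adjusted p = 0.0203). Its call ended in 4 of 7 fits that left out a library. Against ASP shSCR, *Dohh* was at 0.03 in shGRIN2D (adjusted p = 0.971) and was called higher in shDHPS (0.455, adjusted p = 0.0108).

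The substrate of the pathway was not called. *Eif5a* was 1220 ± 26.5 CPM (SD, n = 3) in shGRIN2D and 1400 ± 94.0 CPM (SD, n = 4) in shDHPS, a difference of 0.21 (standard error 0.0985, adjusted p = 0.317) although the libraries did not overlap. *Eif5a2*, its paralog, was 15.5 ± 2.40 and 15.7 ± 1.75 CPM (log2 fold change 0.02, standard error 0.137, adjusted p = 0.975). The spermidine and spermine synthases *Srm* and *Sms* were at 0.15 (adjusted p = 0.507) and 0.13 (adjusted p = 0.61), and *Sat1*, which acetylates polyamines for export, was at 0.33 (adjusted p = 0.134).

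Of 27 measured genes of the NMDA receptor, calcium signaling and CREB, none was called higher and 1 lower in edgeR's quasi-likelihood test with Benjamini-Hochberg adjustment. At an unadjusted p under 0.05 there was 1 higher and 6 lower. DESeq2 called 2. The called gene was *Ep300*, a histone acetyltransferase and CREB coactivator, at 113, 106 and 117 CPM in shGRIN2D and 63.5, 88.8, 75.4 and 99.8 CPM in shDHPS (log2 fold change -0.45, adjusted p = 0.0343). The call ended without further scaling (edgeR, library size only), with a filter on low counts, with a GC and length correction, and in 5 of 7 fits without a library. *Creb1* was 84.8 ± 2.61 against 76.4 ± 13.9 CPM, a difference of -0.15 (standard error 0.119, adjusted p = 0.594). *Grin1*, the obligatory receptor subunit, had at most 1 count in any of the 7 libraries.

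Immediate-early genes, which calcium and growth factor signals switch on within minutes, were called in both directions, 3 higher and 3 lower of 27. *Egr3*, a zinc finger factor, was 39.7, 30.9 and 38.3 CPM in shGRIN2D and 18.8, 21.4, 17.9 and 19.1 CPM in shDHPS (log2 fold change -0.91, adjusted p = 2.75e-05). *Atf3*, a stress-induced factor, went the other way, at 11, 12 and 10.3 CPM against 18.7, 14.9, 22.4 and 18.3 CPM (log2 fold change 0.75, adjusted p = 0.00223). Both were called in every alternative tried. *Fosl1* (0.49), *Dusp5* (0.45), *Btg2* (-0.74) and *Fosl2* (-0.41), with adjusted p of 0.0283, 0.0174, 0.00776 and 0.0343, lost their calls when single libraries were left out.

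TGF-beta, a cytokine that drives matrix production, binds receptor kinases that phosphorylate Smad2 and Smad3. Of 36 measured ligands, receptors and Smads, none was called higher and 2 lower. At an unadjusted p under 0.05 in edgeR's quasi-likelihood test, 10 were lower and 0 higher, and DESeq2 called 2. *Tgfb3* was 105, 83.3 and 104 CPM in shGRIN2D and 62.5, 62.4, 70.6 and 62.9 CPM in shDHPS (log2 fold change -0.59, adjusted p = 0.00127). Against ASP shSCR, *Tgfb3* was called higher in shGRIN2D (0.48, adjusted p = 0.0101), while shDHPS was at -0.11 (adjusted p = 0.547). *Acvr2b*, an activin receptor, was at -0.69 (adjusted p = 0.0377). *Tgfb1* was 151, 151 and 175 CPM against 81.3, 156, 157 and 156 CPM, so that replicate 1 of shDHPS alone lay low, and the difference of -0.21 (standard error 0.153) had an adjusted p of 0.547. *Smad3* was 254 ± 17.0 against 209 ± 26.5 CPM without overlap (log2 fold change -0.28, adjusted p = 0.17). *Tgfb2* was at 0.11 (standard error 0.279, adjusted p = 0.908) from a mean of about 2.22 CPM.

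Genes known to respond to TGF-beta moved both ways, with 2 of 23 called higher and 3 lower. *Ccn1*, a matricellular protein also induced by YAP, was 33.2, 37.3 and 45.8 CPM in shGRIN2D and 68.6, 71.8, 78.4 and 87.8 CPM in shDHPS. Its log2 fold change was 0.99 (adjusted p = 1.14e-05), and that of its relative *Ccn2* 0.69 (adjusted p = 0.0136), with libraries of *Ccn2* that overlapped. *Id2*, an inhibitor of helix-loop-helix factors, was at -0.56 (adjusted p = 0.00203). Fibronectin, *Fn1*, was 968, 1450 and 1810 CPM against 403, 701, 904 and 1050 CPM. The lowest shGRIN2D library lay inside the shDHPS range, and the log2 fold change of -0.88 (adjusted p = 0.0128) was not called by DESeq2, with the filter on low counts or with the robust prior. *Thbs1*, thrombospondin 1, was at -0.54 (adjusted p = 0.0159) and also lost its call with that filter.

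Of 30 measured collagen chains, 4 were called lower and 1 higher. *Col5a1*, a fibrillar chain, was 52.6, 53.1 and 63.1 CPM in shGRIN2D and 14.6, 28.2, 29.6 and 36.2 CPM in shDHPS (log2 fold change -1.05, adjusted p = 0.000559). *Col6a1*, of the beaded filaments, was 77.2, 86.1 and 83.9 CPM against 32.9, 57.2, 62.0 and 59.7 CPM (-0.64, adjusted p = 0.011), and *Col6a2* was at -1.16 (adjusted p = 0.00756). In each of these genes shDHPS replicate 1 was the lowest library, and the calls held without it. The robust prior ended the calls of *Col5a1* and *Col6a1*, and the filter on low counts that of *Col6a1*. Against ASP shSCR, *Col6a1* was called in shGRIN2D (0.82, adjusted p = 0.00276), and shDHPS was at 0.18 (adjusted p = 0.463). *Col1a1*, the main chain of type I collagen, was 1.39, 0.470 and 1.07 CPM against 0.158, 0.133, 0.432 and 0.160 CPM, too few counts for a firm value (adjusted p = 0.043, called in 6 of 15 alternatives). *Col8a1*, a short chain, was higher (0.44, adjusted p = 0.0236). Across the alternatives, 2 to 4 collagen chains were called lower. The summed fibroblast markers lay on the other side, higher in shDHPS. This sum was mostly *Thy1*, in spheroids grown from 4T1 cells, and its part was not tested.

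Among 26 measured genes that modify or crosslink collagen, 1 was called higher and 2 lower. *Pcolce*, which speeds removal of the procollagen C-propeptide, was 120, 119 and 117 CPM in shGRIN2D and 60.6, 74.5, 67.0 and 69.5 CPM in shDHPS. The groups were far apart against their spread, at -0.80 on the log2 scale (standard error 0.0998, adjusted p = 1.32e-05). *Loxl3*, a lysyl oxidase relative, was at -0.50 and *Ppib*, a prolyl isomerase of the endoplasmic reticulum, at 0.44. Of 39 matrix proteases and inhibitors, only *Plaur*, the urokinase receptor, was called (0.39, adjusted p = 0.0232). At an unadjusted p under 0.05 this list held 7 genes higher and 5 lower.

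The list with the largest share called higher was that of the ATF4 stress response, the program set off by amino acid shortage and phosphorylation of eIF2α. Of 31 measured genes 7 were called higher and none lower, and across the alternatives between 3 and 11 were called higher. Besides *Chac1* they were *Ddit3*, *Trib3*, *Stc2*, *Mthfd2*, *Eif4ebp1* and *Phgdh*. *Ddit3*, the stress factor CHOP, was 12.6, 13.9 and 14.9 CPM in shGRIN2D and 22.2, 21.9, 29.2 and 21.4 CPM in shDHPS (log2 fold change 0.78, adjusted p = 0.000739). *Mthfd2*, of mitochondrial folate metabolism, was at 0.58 (adjusted p = 0.00445), and *Phgdh*, the first enzyme of serine synthesis, at 0.36 (adjusted p = 0.0476). *Trib3* was at 0.61 (adjusted p = 0.00551), without a call in the fit of all 14 libraries. *Atf4* itself (0.23, adjusted p = 0.252) and *Asns*, asparagine synthetase (0.29, adjusted p = 0.187), were not called. The median over the 27 members with at least 5 CPM was 0.18, beside 0.01 over all such genes.

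Of 37 inflammatory cytokines and NF-κB targets 6 were called higher and none lower, between 2 and 11 higher across the alternatives. *Il1a*, interleukin 1 alpha, was 117, 121 and 101 CPM in shGRIN2D and 259, 236, 199 and 224 CPM in shDHPS. *Cxcl16*, a membrane-bound chemokine, was 36.8, 50.6 and 47.6 CPM against 83.5, 78.1, 81.7 and 78.5 CPM. Neither gene overlapped, and the log2 fold changes were 1.03 (adjusted p = 2.63e-06) and 0.84 (adjusted p = 4.46e-05). *Csf3*, the growth factor of granulocytes, was at 1.01 (adjusted p = 5.96e-05), but not called in the fit of all 14 libraries (adjusted p = 0.0559). *Cxcl1* and *Ccl20*, chemokines for neutrophils and for CCR6-bearing lymphocytes, were at 0.64 (adjusted p = 0.00634) and 1.22 (adjusted p = 0.00664), and *Tnfaip3*, a feedback inhibitor of NF-κB, at 0.43 (adjusted p = 0.0337). Of the 21 members with at least 5 CPM, 18 had a log2 fold change above 0, with a median of 0.34. The summed leukocyte markers were 0.412 to 1.70 CPM in shGRIN2D and 0.998 to 1.73 CPM in shDHPS, and their part was not tested.

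Of 43 type I interferon response genes 2 were called higher, *Ifit2* (0.79, adjusted p = 0.00165) and *Bst2* (0.49, adjusted p = 0.0275), and none lower. *Ifit2*, an antiviral RNA-binding protein, was 7.87 to 9.98 CPM in shGRIN2D, 13.5 to 17.9 CPM in shDHPS and 13.3 to 15.2 CPM in ASP shSCR. Against ASP shSCR it was called in shGRIN2D (-0.66, adjusted p = 0.019), while shDHPS was at 0.12 (adjusted p = 0.644). The median of the 23 members with at least 5 CPM was -0.03. At an unadjusted p under 0.05 in edgeR's quasi-likelihood test, 3 genes of this list were higher and 7 lower, and DESeq2 called 4. Across the alternatives 1 to 3 were called higher and 0 to 3 lower.

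Lysosomal genes, which the MiT/TFE factors control, had 5 of 55 members called higher and 1 lower, with 2 to 9 and 1 to 2 across the alternatives. *Gpnmb*, a glycoprotein of lysosomes and melanosomes, was 27.4, 32.1 and 35.6 CPM in shGRIN2D and 51.9, 60.6, 73.4 and 73.0 CPM in shDHPS. ASP shSCR lay below both, at 11.1 to 16.4 CPM. The direct difference was 1.03 (standard error 0.129, adjusted p = 1.3e-05), and both knockdowns were called higher than ASP shSCR (2.19, adjusted p = 2.6e-07 in shDHPS and 1.15, adjusted p = 0.00122 in shGRIN2D). *Ppt1*, a thioesterase that removes palmitate from proteins, was 50.4, 42.2 and 49.6 CPM against 102, 88.9, 92.6 and 84.2 CPM, with ASP shSCR between them at 69.2 to 76.0 CPM. Its difference was 0.96 (adjusted p = 3.79e-06). *Mitf*, itself a MiT/TFE factor, was lower in shDHPS, 27.9 to 37.7 against 18.6 to 20.5 CPM (-0.73, adjusted p = 0.000416). *Cd68* (0.63), *Neu1* (0.46) and *Cd63* (0.41) were also called higher, while *Lamp1* (0.26, adjusted p = 0.16; called by DESeq2) and *Tfeb* (-0.16, adjusted p = 0.688) were not called.

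In iron handling 3 of 24 genes were called higher (0 to 4 across the alternatives) and 2 lower (1 to 2). The importers *Slc39a8* and *Slc11a2* were at 0.80 (adjusted p = 0.0161) and 0.56 (adjusted p = 0.0107), and *Hmox1*, which frees iron from heme, at 0.66 (adjusted p = 0.00902) with overlapping libraries. The exporter ferroportin, *Slc40a1*, was 12.9, 12.9 and 11.3 CPM in shGRIN2D and 8.30, 5.06, 8.16 and 7.47 CPM in shDHPS (-0.76, adjusted p = 0.00637). *Steap4*, a metalloreductase, was at -1.98 (adjusted p = 0.00584) from a mean of 2.09 against 0.54 CPM. In the list of glutathione and NRF2 targets, 5 of 35 were called higher, with 0 to 7 across the alternatives. They were *Hmox1*, *Gclm* (0.52, adjusted p = 0.00393), a subunit of the enzyme that starts glutathione synthesis, *Gpx8*, *Prdx6* and *Nqo1*. *Gstm1*, 1 of a family of similar glutathione transferases, was called lower (-0.67, adjusted p = 0.00256).

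Genes of DNA replication and mitosis were higher in shDHPS where they were called, with 5 of 41 and 2 of 40. In replication these were *Ccne1*, *Gins3* (0.49, adjusted p = 0.0294), *Mcm3* (0.43, adjusted p = 0.011), *Rrm2* (0.42, adjusted p = 0.0273) and *Fen1* (0.39, adjusted p = 0.0294). *Mcm3*, a subunit of the replicative helicase, was 156, 142 and 150 CPM in shGRIN2D and 192, 196, 202 and 212 CPM in shDHPS. In mitosis they were *Ccnb1*, cyclin B1 (0.43, adjusted p = 0.0181), and *Cenpa*, the centromeric histone (0.38, adjusted p = 0.04). In each list 36 members had a log2 fold change above 0, with medians of 0.15 and 0.19. *Mki67*, a marker of cycling cells on the mitosis list, was at -0.24 (adjusted p = 0.345). Across the alternatives, 1 to 7 replication genes and 0 to 6 mitosis genes were called higher. Against ASP shSCR, *Mcm3* was called lower in shGRIN2D (-0.41, adjusted p = 0.0242), while shDHPS was at 0.02 (adjusted p = 0.938). *Gins3* (0.56, adjusted p = 0.0209) and *Fen1* (0.33, adjusted p = 0.0457) were called higher in shDHPS against ASP shSCR. Without ASP shSCR replicate 2 these were at 0.44 (adjusted p = 0.0743) and 0.27 (adjusted p = 0.168).

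Epithelial genes were called in both directions, 3 of 33 each way, with 1 to 3 higher and 1 to 6 lower across the alternatives. Of 4 measured claudins, proteins of tight junctions, 3 were called higher. *Cldn3* was 87.0, 76.1 and 85.2 CPM in shGRIN2D and 146, 118, 137 and 128 CPM in shDHPS (0.68, adjusted p = 0.000246), and *Cldn7* and *Cldn4* were both at 0.46 (adjusted p = 0.0172 and 0.00756). Against ASP shSCR, *Cldn7* was called lower in shGRIN2D (-0.52, adjusted p = 0.0172), while shDHPS was at -0.07 (adjusted p = 0.765). *Cldn3* was called higher in shDHPS (0.405, adjusted p = 0.0179), but not without ASP shSCR replicate 2 (0.377, adjusted p = 0.0575). *Cldn4* was called in neither. Of 7 measured keratins 2 were called lower, as was plakoglobin (*Jup*). *Krt14*, a basal keratin, was 80.8, 85.5 and 92.0 CPM against 59.8, 54.4, 61.5 and 53.9 CPM (-0.58, adjusted p = 0.000937), *Krt19* was at -0.43 (adjusted p = 0.0111) and *Jup* at -0.40 (adjusted p = 0.0378). The far more abundant *Krt8* and *Krt18*, which pair in the filaments of simple epithelia, were at 0.15 and 0.16 (adjusted p = 0.514 for each) and were not called. *Cldn7*, *Krt14* and *Krt19* are also on the list of mammary epithelial markers, whose sum overlapped between the groups at 3873 to 4543 CPM in shDHPS and 3784 to 4086 CPM in shGRIN2D. Of 21 mesenchymal genes *Tnc*, tenascin C, was called higher (1.05, adjusted p = 0.0078), and *Fn1* and *Spp1* lower. *Spp1*, osteopontin, was among the most abundant transcripts at 5320, 5360 and 4470 CPM in shGRIN2D and 3560, 2840, 3440 and 2990 CPM in shDHPS (-0.65, adjusted p = 0.000491).

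Guidance receptors and ligands, the semaphorins, plexins, ephrins, netrins and slits with their receptors, had 6 of 58 members called lower and 2 higher, with 2 to 9 and 1 to 4 across the alternatives. Lower were *Robo1* (-0.81), *Ephb6* (-0.73), *Sema3b* (-0.69), *Nrp1* (-0.53), *Plxnd1* (-0.52) and *Epha1* (-0.47), and *Plxna4* (1.52) and *Sema6a* (1.08) were higher. *Sema3b*, a secreted semaphorin, was 16.2, 14.7 and 13.9 CPM in shGRIN2D and 8.88, 8.26, 9.56 and 10.1 CPM in shDHPS (adjusted p = 0.0031). Among 21 genes of N-glycan branching, *Mgat3* and the mannosidase *Man1c1* (-0.81, adjusted p = 0.000985) were lower. *St3gal4*, a sialyltransferase, was 125, 118 and 115 CPM against 220, 193, 196 and 187 CPM (0.75, adjusted p = 4.88e-05).

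Several large gene groups held no called gene in edgeR's quasi-likelihood test. Of 83 cytosolic ribosomal protein genes none was called, with 4 at an unadjusted p under 0.05, and DESeq2 called none. The same held for 78 mitochondrial ribosomal protein genes (6 at that level), 84 nuclear genes of oxidative phosphorylation (12) and 37 autophagy genes (1), with none by DESeq2. The 58 translation factors held 7 genes at that level and 1 DESeq2 call, and the 13 mitochondrially encoded genes 1 and 0. Hypoxia genes had none called of 26 (9 at that level, 2 by DESeq2). Single genes were called in glycolysis (*Aldoc*, -0.69, adjusted p = 0.0164, of 21), cholesterol synthesis (*Msmo1*, 0.46, adjusted p = 0.029, of 27) and aspartate and glutamate use (*Glul*, glutamine synthetase, 0.46, adjusted p = 0.016, of 21). *Glul* was 23.5, 23.1 and 22.4 CPM in shGRIN2D and 32.7, 30.4, 31.1 and 31.7 CPM in shDHPS. Against ASP shSCR, *Glul* was called lower in shGRIN2D (-0.66, adjusted p = 0.00732), while shDHPS was at -0.21 (adjusted p = 0.329). Median log2 fold changes in the ribosomal protein and oxidative phosphorylation lists lay between 0.06 and 0.10, and 12 of 13 mitochondrially encoded genes were at or below 0.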

How the data were processed

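The authors made stranded mRNA libraries, trimmed reads with Trim Galore 0.6.6, aligned them to GRCm39 with STAR 2.6.1, estimated genes with Salmon 1.4.0 and deposited whole counts per gene. Salmon divides shared reads by estimation, so gene copies are less certain. The authors' tables of their own tests of aspartate in control spheroids (DESeq2 log2 fold changes and p-values, and gene set scores) were not used.

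The 7 libraries were fitted with edgeR 4.0.16 in R 4.3.3 (TMM, glmQLFit, glmQLFTest, group as the only term, no filter on the 19525 deposited genes), with p adjusted by Benjamini-Hochberg. Fits were tested on simulated data, in which false calls exceeded those made after a filter on low counts. Total counts of 14883457 to 19497436 limit precision at low levels. Per the study's methods, the polysome fractions came from independent spheroid pellets and the RNA used here from the input of those lysates, so p-values measure the spread between pellets, not between separately made knockdown lines. Genes were named by rank (the 12 largest differences each way with at least 5 CPM and no overlap), from lists (up to 3 called genes each way), or in any case. *Stc2*, *Mthfd2*, *Eif4ebp1*, *Phgdh*, *Cxcl1*, *Ccl20*, *Tnfaip3*, *Rrm2*, *Fen1*, *Neu1*, *Cd63*, *Steap4*, *Prdx6*, *Nqo1*, *Nrp1*, *Plxnd1*, *Epha1*, *Sema6a*, genes named from hallmark sets alone and uncalled genes named for contrast were chosen after their values were seen, and 1 gene that the rule gave is not reported here. The comparison, lists and tests were chosen with earlier results of these data known. UTRs, GC content and length came from GENCODE M21 (GRCm38), matched by Ensembl identifier, with GC content and length known for 97.0% of genes, since a GRCm39 reference was not used here. Alternatives were DESeq2 1.42.0, RLE or no scaling, filterByExpr (12965 genes), a robust prior, all 14 libraries, replicate blocks, a GC and length correction, glmTreat at 1.5-fold and fits without 1 library.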

Additional observations from a re-analysis of the deposited data

Results flagged for a closer look

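In 26 of 242 groups of 4 libraries, 1 library lay far from the other 3 by Dixon's criterion, which chance meets in about 1 in 20 groups. The shDHPS group enters the direct comparison, and ASP shSCR gives only the levels beside it.

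In shDHPS, replicate 1 was low for *Tgfb1* (81.3 CPM against 156 to 157), *Ace* (14.9 against 22.8 to 24.2) and *Col6a1* (32.9 against 57.2 to 62.0). It was high for *Rrm2* (316 CPM), *Phgdh* (256 CPM) and *Asns* (91.4 CPM). Replicate 3 was high for *Ddit3* (29.2 CPM against 21.4 to 22.2), *Tgfb3* (70.6 against 62.4 to 62.9) and *Col1a1* (0.432 against 0.133 to 0.160). Replicate 4 was high for *Gper1* (2.83 CPM against 2.52 to 2.54). For *Ace*, *Col6a1*, *Ddit3*, *Tgfb3* and *Gper1* the distant library lies on its own group's side, and the groups do not overlap.

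In ASP shSCR, replicate 2 was the distant library for 15 genes. It was high for *Csf3* (155 CPM), *Cxcl1* (257 CPM), *Ccl20* (5.62 CPM), *Tnfaip3* (114 CPM), *Col8a1* (105 CPM), *Aldoc* (31.1 CPM), *Ephb6* (23.7 CPM) and *Slc39a8* (4.73 CPM). It was low for *Azin1* (200 CPM), *Eif5a* (937 CPM), *Eif5a2* (11.3 CPM), *Srm* (50.6 CPM), *Rrm2* (161 CPM), *Fen1* (63.0 CPM) and *Lamp1* (582 CPM). Replicate 3 was high for *Hmox1* (45.2 CPM against 29.3 to 31.7). Why these libraries lie apart was not tested.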

How the results depend on the processing

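The 708 calls (302 higher and 406 lower in shDHPS) were within 1.5 times under DESeq2, other scaling, filterByExpr, the robust prior and the fit of all 14 libraries, where 550 to 869 genes were called. The replicate number as a block gave 1527 calls in the 7 libraries (551 higher, 976 lower) and 1468 in the 14 (585 higher, 883 lower). The deviations of same-numbered libraries correlated at 0.00584, 0.0309 and 0.225, and not every library did so best with its own number. This measure left out the controls and does not decide whether the numbers pair the libraries. Single genes did follow the number. *Cxcl1* was highest in replicate 2 of shGRIN2D, shDHPS, ASP shSCR and NoASP shSCR (107, 163, 257 and 140 CPM), as was *Csf3* (58.8, 130, 155 and 91.9 CPM). *Il1a* did not, with shDHPS replicate 1 highest at 259 CPM. Whether the numbers mark a shared culture was not tested. The GC and length correction called 524 genes higher and 1052 in all. The test against 1.5-fold called 62 genes, 24 higher and 38 lower. Without 1 library the calls ranged from 348 (without shGRIN2D replicate 1) to 1142 (without shDHPS replicate 1), those higher from 137 to 531 and those lower from 211 to 611. The cause was not tested, but fits without a shGRIN2D library rest on 2 libraries in that group. *Eif5a2* turned to -0.00577 and -0.0188 with the block in 7 and 14 libraries and ranged from -0.0504 to 0.155 without 1 library, and *Tgfb2* from -0.125 to 0.326. Neither was called in any fit. *Dhps* was called in all 16 alternatives and *Grin2d* in none. Without genes that hold TCATGAA in the 3′ UTR, and with 20 CPM as the minimum or all 14 libraries for its share, values kept their side.

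Calls lost in at least 1 alternative, with the highest adjusted p among them (edgeR's quasi-likelihood test or DESeq2), were *Serpinb9b* (0.0998), *Odc1* (0.0603), *Ep300* (0.133), *Fosl1* (0.24), *Dusp5* (0.149), *Btg2* (0.116), *Fosl2* (0.231), *Acvr2b* (0.294), *Ccn2* (0.129), *Fn1* (0.387), *Thbs1* (0.085), *Col8a1* (0.259), *Col6a2* (0.0952), *Col5a1* (0.177), *Col6a1* (0.141), *Ppib* (0.157), *Loxl3* (0.113), *Plaur* (0.174), *Cd68* (0.109), *Trib3* (0.102), *Aldoc* (0.348), *Msmo1* (0.194), *Bst2* (0.212), *Csf3* (0.0559), *Cldn7* (0.11), *Cldn4* (0.0797), *Krt19* (0.0937), *Jup* (0.213), *Gins3* (0.142), *Mcm3* (0.0987), *Ccnb1* (0.116), *Cenpa* (0.269), *Hmox1* (0.134), *Gclm* (0.0871), *Gpx8* (0.196), *Robo1* (0.287), *Ephb6* (0.157), *Slc39a8* (0.111), *Slc11a2* (0.116), *Glul* (0.108), *Dohh* (0.125), *Col1a1* (0.317), *Stc2* (0.116), *Mthfd2* (0.053), *Eif4ebp1* (0.16), *Phgdh* (0.252), *Cxcl1* (0.37), *Ccl20* (0.108), *Tnfaip3* (0.24), *Rrm2* (0.151), *Fen1* (0.215), *Neu1* (0.265), *Cd63* (0.168), *Steap4* (0.173), *Prdx6* (0.142), *Nqo1* (0.318), *Nrp1* (0.123), *Plxnd1* (0.0672), *Epha1* (0.0913) and *Sema6a* (0.0852). *Serpinb9b*, *Csf3* and *Ccl20* were lost in the fit of all 14 libraries alone and *Col5a1* with the robust prior alone, and the others without at least 1 library. *Smad3*, *Sat1*, *Asns*, *Lamp1* and *Mki67* gained a call in 1 or 2 alternatives each. Against ASP shSCR, 36 calls of named genes in shDHPS and 21 in shGRIN2D held and 22 and 3 ended in a fit without ASP shSCR replicate 2, an alternative chosen after seeing the data. Genes under about 5 CPM are imprecise at this depth.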

Other observations

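The hallmark sets in the deposited gene set file were counted the same way, with no test of a set, and those with the largest share called in each direction are given. Cholesterol homeostasis had the largest share called higher in shDHPS, 10 of 70 measured members (14.3%) beside 1.55% of all genes, and 5 were called lower (7.14%). In this set 65 members reached 5 CPM in the higher group. Among all genes at that level the shares were 2.71% higher and 3.32% lower. The 10 were *Cxcl16*, *Atf3*, *Chka*, *Trib3*, *Fabp5*, *Lgmn*, *Mal2*, *Gpx8*, *Plaur* and *S100a11*, none of which is an enzyme of the sterol pathway. They include a chemokine, stress factors, a choline kinase, a fatty acid binding protein and the lysosomal protease legumain. In the list of cholesterol synthesis and uptake genes, 1 of 27 was called. The hypoxia set had 15 of 174 members called higher (8.62%) and 7 lower (4.02%), while the 26 core hypoxia genes held none, and the members called higher included *Ccn1*, *Ddit3*, *Atf3* and *Hmox1*. Next came TNF signaling via NF-κB, with 15 of 187 called higher (8.02%) and 7 lower (3.74%). Its members called higher included *Ccl20*, *Il1a* and *Ccn1*, and those lower *Egr3* and *Id2*.

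Estrogen response (early) had 20 of 178 measured members called lower (11.2%) and 8 called higher (4.49%). Beside this, 2.08% of all genes and 3.32% of those at 5 CPM or more in the higher group were called lower. Those lower included *Egr3*, *Krt19*, *Sema3b*, the mTOR inhibitor *Deptor*, the glucocorticoid-induced immunophilin *Fkbp5* and the receptor corepressor *Nrip1*, and those higher included *Nbl1*, *Stc2*, *Cldn7* and *Xbp1*. Apical surface had 5 of 37 lower (13.5%), among them the chemokine *Cx3cl1* and the sulfatase *Sulf2*. Angiogenesis had 3 of 25 lower (12%), *Fgfr1*, *Spp1* and *Nrp1*. Several of these genes sit in more than 1 set, so the counts are not separate. Of the 12 called genes named here alone, *Chka*, *Fabp5*, *Deptor*, *Sulf2* and *Fgfr1* were called in all 16 alternatives, and 7 lost the call in at least 1 (highest adjusted p in edgeR's quasi-likelihood test or DESeq2: *Lgmn* 0.154, *Mal2* 0.158, *S100a11* 0.231, *Fkbp5* 0.119, *Nrip1* 0.255, *Xbp1* 0.179 and *Cx3cl1* 0.103).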
